A study of Danio rerio with 16 samples.

Results

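Genes that encode neuropeptide precursors of interneurons were followed in dissected eyes and dissected brains of zebrafish larvae. The set named 9 genes, and a gene was taken when its symbol in the expression tables was identical to one of these names. Rows were found for 8 of the 9 among 31901 genes in each table: npy, vip, adcyap1a, adcyap1b, tac1, penka, penkb and sst1.1. The ninth, cckb, is not analysed here. The members had been chosen on results of the same libraries that were already known, in which npy and vip were noted for their lower levels in eyes of exposed larvae. The eye values below are therefore a description, with no test. All larvae were wild type and were sampled at 120 hours post fertilization (hpf). Exposed larvae received phenol isopropylated phosphate (IPP), an organophosphate flame retardant and plasticizer, at 0.2 uM from 6 hpf onwards, and the vehicle was dimethyl sulfoxide (DMSO) at 0.02% in both treatments. The groups were eye DMSO, eye IPP, brain DMSO and brain IPP, with 4 libraries each and 16 in all. The title of the series ties the exposure to a deficit of the larval movement response to light. The labels do not say how many larvae went into a library or whether libraries came from separate clutches, so the spread between libraries may be partly technical.

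Neuropeptides are cut from larger precursor proteins, packed into dense-core granules and released in addition to a fast transmitter such as GABA or glutamate. They act on G protein-coupled receptors and change the excitability of nearby cells more slowly than fast transmitters do. In the vertebrate retina most peptides are made by sparse subclasses of amacrine cells, the interneurons that shape the signal on its way to ganglion cells. In the brain the same genes are used by many cell groups, among them hypothalamic neurons and local inhibitory interneurons. NPY is known for its role in feeding and sleep and, in the retina of several vertebrates, is found in amacrine cells. VIP and PACAP, the latter encoded in zebrafish by adcyap1a and adcyap1b, are related peptides that raise cyclic AMP. The gene tac1 encodes substance P and neurokinin A, penka and penkb encode enkephalin precursors that act on opioid receptors, and sst1.1 encodes somatostatin, which inhibits hormone and transmitter release.

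Values are FPKM, fragments scaled to gene length and to library size. FPKM times gene length gave whole reads in every library. Reads assigned to genes amounted to 10.6 M to 12.5 M in eye and 9.62 M to 16.3 M in brain. The library totals behind the values equalled size factors computed within each tissue, so eye and brain were scaled separately. Genes whose mean reached 0.5 FPKM in a tissue were tested on log2(FPKM + 0.5) with limma, two-sided, with Benjamini-Hochberg adjustment over all 17096 genes tested in eye or 17533 in brain. At an adjusted p under 0.05, 0 genes were called in either tissue, which is 0% of the genes tested. An unadjusted p under 0.05 was reached by 1886 genes in eye (5.73% of those tested lower and 5.3% higher in IPP) and by 512 in brain (1.36% lower and 1.56% higher), and limma-voom on the rebuilt reads also called 0 genes. Identity of the tissues was plain from photoreceptor markers, whose 15 genes summed to 17049 to 20625 FPKM in eye and to 4.0 to 175 FPKM in brain. The lowest and highest values of immediate early genes within a tissue both belonged to IPP libraries. The 19 genes of this list summed to 480 to 2715 FPKM in eye IPP against 609 to 1102 in eye DMSO, and IPP 3 and IPP 4 were the high libraries in both tissues. Markers of gut, liver and pancreas summed to 3138 FPKM in brain DMSO 1 and 9600 FPKM in brain IPP 4, against 10.5 to 202 FPKM in the other brain libraries.

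In eyes of vehicle larvae vip was by far the most abundant member. Its mean was 44.8 ± 2.97 FPKM (SD, n = 4), a level that 92.5% of the tested eye genes did not exceed. Next came adcyap1b at 6.57 ± 0.0377, tac1 at 6.29 ± 1.65 and npy at 6.20 ± 1.23 FPKM, whose ranges overlapped from one neighbour to the next. Lower again stood penkb at 1.84 ± 0.639, sst1.1 at 1.63 ± 0.512 and penka at 1.59 ± 0.251 FPKM, whose neighbouring ranges also overlapped. The least abundant was adcyap1a at 0.764 ± 0.495 FPKM, which rested on 3 to 27 reads per eye library. The vip range lay apart from that of adcyap1b, the npy range from that of penkb, and the penka range from that of adcyap1a.

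Brains of vehicle larvae showed another order. The most abundant member was adcyap1b at 110.5 ± 3.50 FPKM (SD, n = 4), a level not exceeded by 97.1% of the tested brain genes. It was followed by sst1.1 at 66.1 ± 8.86 and tac1 at 55.7 ± 6.87 FPKM, whose ranges overlapped. After a gap came vip at 24.7 ± 5.35 and penka at 22.6 ± 3.14 FPKM, which overlapped, and then penkb at 13.5 ± 0.955 and npy at 12.7 ± 1.49 FPKM, which overlapped too. The lowest was again adcyap1a at 7.84 ± 1.09 FPKM. The pair of PACAP genes thus stood at opposite ends of the brain order. The gene adcyap1b (chromosome 2, 31296644 to 31302619, minus strand, in the coordinates of the tables) overlaps clul1 on the opposite strand, and the labels describe both stranded and unstranded preparations, so some of its reads may belong to clul1. That gene stood at 20.5 ± 1.15 FPKM in eye DMSO and 18.7 ± 0.402 FPKM in brain DMSO (SD, n = 4), so it did not share the difference of adcyap1b between the tissues.

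With the tables scaled separately, levels in eye and brain were set side by side without a test. Only vip was higher in eye, by 1.82-fold in DMSO larvae. The gene npy was 2.04-fold higher in brain, penkb 7.34-fold, tac1 8.84-fold and adcyap1a 10.3-fold. The largest gaps were those of penka at 14.2-fold, adcyap1b at 16.8-fold and sst1.1 at 40.7-fold. For each of the 8 genes the 4 eye and the 4 brain DMSO libraries did not overlap. The share of all genes without such overlap between the tissues was not computed, so nothing is read from that count. Scaled instead to gene length and to all reads assigned to genes, every ratio kept its direction, and the log2 ratio of eye over brain was 0.85 for vip and -1.06 for npy. Joint scaling of both tables by median-of-ratios also kept each direction and moved these to 1.2 and -0.69.

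**Figure D1:**
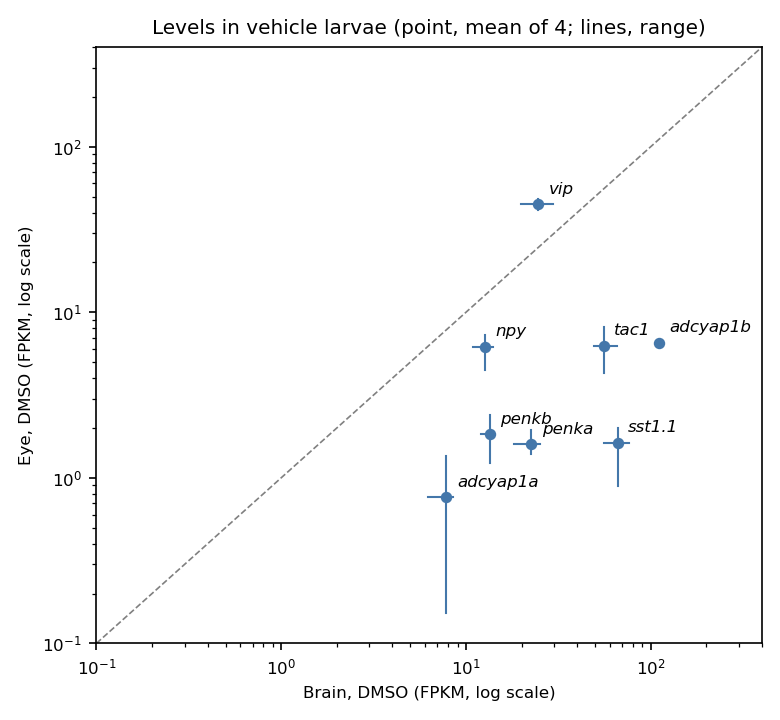
Mean FPKM of 8 neuropeptide genes in brain (horizontal, log scale) and eye (vertical, log scale) of DMSO larvae, with lines for the range of 4 libraries and a dashed line of equal level. Only vip lies above the dashed line, at 44.8 FPKM in eye and 24.7 FPKM in brain, and sst1.1 and adcyap1b lie farthest below it.

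In eyes of exposed larvae npy was below its vehicle level in every library. The gene (chromosome 19, 20110699 to 20114149, minus strand) read 6.79, 7.32, 6.21 and 4.48 FPKM in DMSO libraries 1 to 4 and 3.08, 1.90, 2.63 and 3.12 FPKM in IPP libraries 1 to 4. The highest IPP library thus stayed below the lowest DMSO library, which was DMSO 4. The means were 6.20 ± 1.23 and 2.68 ± 0.566 FPKM (SD, n = 4), a log2 fold change of -1.07 with an SE of 0.19. It was the most negative change of the 8 members. With eye DMSO 4 and IPP 4 both left out it was -1.28.

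The groups of vip (chromosome 13, 46987955 to 46991577, minus strand) also did not overlap in eye. Its DMSO libraries 1 to 4 held 44.7, 48.5, 44.7 and 41.3 FPKM, and its IPP libraries held 35.1, 30.4, 36.5 and 35.5 FPKM. The difference was smaller in proportion than for npy but rested on 444 to 593 reads per library and a narrow spread. The mean went from 44.8 ± 2.97 to 34.4 ± 2.74 FPKM (SD, n = 4), a log2 fold change of -0.38 with an SE of 0.088. In absolute terms it was the widest gap among the members.

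The third gene with groups apart in eye was tac1 (chromosome 19, 25649626 to 25653185, plus strand). It read 8.14, 4.32, 7.03 and 5.68 FPKM in DMSO libraries 1 to 4 and 3.75, 3.75, 3.65 and 3.97 FPKM in IPP libraries. The IPP libraries were nearly alike, while the DMSO libraries were spread, with DMSO 2 close to the IPP values. The gene rested on 37 to 77 reads per eye library. By counting alone the 95% intervals of DMSO 2, 3.10 to 5.86 FPKM, and IPP 4, 2.87 to 5.35 FPKM, overlapped. The log2 fold change was -0.63 with an SE of 0.18. Of all genes tested in eye, 3.54% had all 4 IPP libraries below all 4 DMSO libraries, and 2.22% had them all above. Since earlier results of this contrast were known when the members were named, nothing is read from the count of 3 of 8.

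The eye groups of the other 5 members overlapped. The PACAP gene adcyap1b stood at 6.62, 6.55, 6.53 and 6.55 FPKM in DMSO libraries 1 to 4 and at 4.37, 7.0, 2.67 and 5.17 FPKM in IPP libraries. The DMSO values were almost identical, 3 IPP libraries were lower, and IPP 2 was the highest of all 8. By counting alone DMSO 1 had a 95% interval of 5.84 to 7.47 FPKM, wider than the spread of the DMSO values. Its log2 fold change was -0.48 with an SE of 0.23, moving to -0.26 without IPP 3. The second PACAP gene, adcyap1a, ran from 0.152 to 1.36 FPKM in DMSO and from 0.279 to 0.613 in IPP, and it passed the filter on low values only through its DMSO level.

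The enkephalin genes did not share a sign in eye. The gene penkb (chromosome 7, 58686860 to 58696086, plus strand) read 2.4, 1.23, 2.38 and 1.34 FPKM in DMSO libraries 1 to 4 and 3.16, 2.58, 2.65 and 1.65 FPKM in IPP libraries. It was the only member with a higher IPP mean, and 3 of its 4 IPP libraries exceeded every DMSO library. Its log2 fold change was 0.38 with an SE of 0.24, against -0.30 with an SE of 0.22 for penka, which moved to -0.16 without IPP 2. For somatostatin the result turned on 1 library: sst1.1 read 1.66, 1.94, 2.01 and 0.891 FPKM in DMSO libraries 1 to 4 and 0.986, 3.83, 0.906 and 0.728 FPKM in IPP libraries. Its IPP 2 value was the highest of the 8 and the other 3 IPP libraries stood near the lowest DMSO library. The log2 fold change of sst1.1 was -0.18 with an SE of 0.39, and -0.60 without IPP 2. Reads per eye library were few, at 6 to 35 for sst1.1, 14 to 29 for penka and 17 to 49 for penkb.

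Summed over the 8 genes, peptide precursor RNA amounted to 62.4 to 72.9 FPKM in the DMSO eyes and 50.4 to 52.5 FPKM in the IPP eyes, a sum that vip dominates. By sign, 7 of 8 members had a lower mean log2 value in IPP eyes, with a median log2 fold change of -0.37, and 50.5% of all genes tested in eye were lower, with a median of -0.0037. These counts describe the members and support nothing about them.

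**Figure D2:**
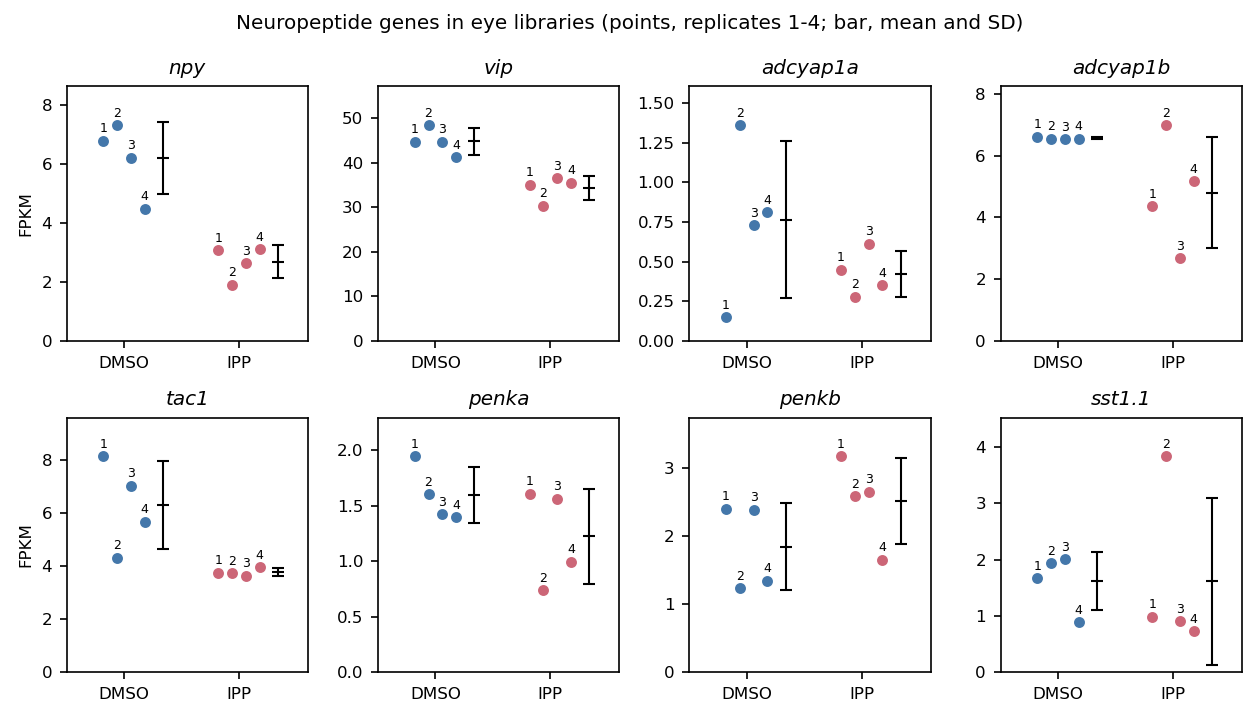
FPKM of 8 neuropeptide genes in each eye library, with library numbers above the points and the mean and SD of 4 libraries beside them; the vertical scales differ between genes and start at 0. The DMSO and IPP points do not overlap for npy, vip and tac1, and sst1.1 has a single high point of 3.83 FPKM in IPP 2.

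Several lists of neuronal genes were also lower in sum in the IPP eyes, and those of photoreceptors and bipolar cells were not. The list of 17 genes of mature neurons, led by snap25b and syt1a, which act in synaptic vesicle release, summed to 1353 to 1727 FPKM in DMSO and 1152 to 1294 FPKM in IPP, with 15 of 16 tested genes lower, a median log2 fold change of -0.32 and 0 called. Markers of amacrine and horizontal cells summed to 679 to 828 against 591 to 676 FPKM, with 14 of 18 tested genes lower. Ganglion cell markers summed to 339 to 453 against 221 to 285 FPKM, with 10 of 11 lower. Photoreceptor markers overlapped in sum, at 17049 to 20351 against 18247 to 20625 FPKM, with 5 of 15 lower, and so did bipolar cell markers, at 189 to 239 against 180 to 312 FPKM, with 3 of 7 tested genes lower. Lists outside the nervous system also leaned to 1 side by sign, with overlapping sums. Muscle markers summed to 38.3 to 97.2 against 22.6 to 53.4 FPKM, with 9 of 9 tested genes lower. Skin markers summed to 1403 to 2232 against 1622 to 2441 FPKM, with 10 of 11 tested genes higher. Whether these lists and the members moved for the same reason was not tested. In bulk tissue, fewer cells of a type and less RNA per cell cannot be told apart. Expressed per 1000 FPKM of the mature neuron genes, npy still separated the groups, at 4.0 ± 0.471 in DMSO and 2.17 ± 0.461 in IPP (SD, n = 4), a log2 ratio of -0.88. On that scale vip overlapped, at 29.2 ± 1.08 and 27.8 ± 3.26, a log2 ratio of -0.071, and tac1 overlapped at -0.44. The log2 ratio of adcyap1b was -0.17 and that of penka -0.051, both with overlap. The enkephalin gene penkb moved further up on it, to a log2 ratio of 0.76, and overlapped. These are ratios of group means without the added 0.5, so they are not the same measure as the fold changes above.

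In brain, where the members' values had not been noted, no member separated the groups. Adjusted p was 1 for each of the 8 by limma, and unadjusted p ran from 0.0814 to 0.955, so 0 members passed 0.05 even unadjusted, against 1.36% of the tested genes on the lower side and 1.56% on the higher. By sign, 2 were lower and 6 higher in IPP, with a median log2 fold change of 0.056, and 46.9% of all tested brain genes were lower, with a median of 0.014. Of all genes tested in brain, 1.1% had every IPP library below every DMSO library and 0.958% above, and 0 of the 8 members did either.

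The widest brain difference was that of sst1.1 (chromosome 15, 36156986 to 36158851, plus strand). It read 70.2, 76.1, 62.5 and 55.8 FPKM in DMSO libraries 1 to 4 and 71.4, 84.4, 67.8 and 97.7 FPKM in IPP libraries. The groups overlapped, with IPP 4 the highest. The log2 fold change was 0.27 with an SE of 0.14 and a 95% interval of -0.042 to 0.59, and 0.17 without IPP 4. That library also held the 9600 FPKM of gut, liver and pancreas markers, and another somatostatin gene, sst2, read 8.82 FPKM there and at most 0.151 FPKM in the other 7 brain libraries. The part of such RNA in the sst1.1 value was not tested.

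For npy the brain libraries held 13.9, 13.9, 10.9 and 11.9 FPKM in DMSO 1 to 4 and 13.0, 13.0, 16.7 and 17.6 FPKM in IPP 1 to 4. IPP 3 and IPP 4 stood above every DMSO library, and IPP 1 and IPP 2 within the DMSO range. These are also the brain libraries with the high immediate early genes. Those genes summed to 2929 and 2243 FPKM there, against 483 to 1207 in the other 6. Both libraries were also the deepest, at 16.3 M reads each against 9.62 M to 12.5 M. Their skin markers summed to 1319 and 986 FPKM, against 21.9 and 20.1 in IPP 1 and IPP 2 and 30.8 to 1198 in DMSO. The part of these differences in the npy values was not tested. The log2 fold change of npy in brain was 0.24 with an SE of 0.13 and a 95% interval of -0.071 to 0.54, so an npy decrease of the size seen in eye lay outside this interval. With brain IPP 3 and IPP 4 left out it was 0.044.

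The remaining brain members differed little between the groups. The gene tac1 read 65.5, 49.5, 53.7 and 54.0 FPKM in DMSO libraries 1 to 4 and 58.5, 60.9, 62.4 and 60.6 FPKM in IPP libraries, and 3 of 4 DMSO libraries lay below all IPP libraries. Its log2 fold change was 0.13 with a 95% interval of -0.074 to 0.33. The gene vip was split within the vehicle group, with 29.7 and 28.9 FPKM in DMSO 1 and 2 and 20.3 and 19.8 in DMSO 3 and 4, against 19.6, 26.7, 23.4 and 20.9 FPKM in IPP 1 to 4. Its interval, -0.48 to 0.27, was wide enough to hold the eye change of -0.38.

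The most abundant brain member, adcyap1b, lay between 107 and 114 FPKM in DMSO and between 103 and 123 FPKM in IPP, a log2 fold change of 0.018 with a 95% interval of -0.15 to 0.19. The enkephalin genes read 18.2 to 25.2 against 19.0 to 26.4 FPKM for penka, with largely shared ranges, and 12.1 to 14.2 against 12.1 to 16.1 FPKM for penkb. For penkb 3 of 4 IPP libraries lay above every DMSO library and IPP 1 lay within the DMSO range; its log2 fold change was 0.095 with a 95% interval of -0.15 to 0.34. The second PACAP gene, adcyap1a, had equal means of 7.84 ± 1.09 and 7.86 ± 2.06 FPKM (SD, n = 4), with its IPP libraries spread from 5.45 to 10 FPKM.

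**Figure D3:**
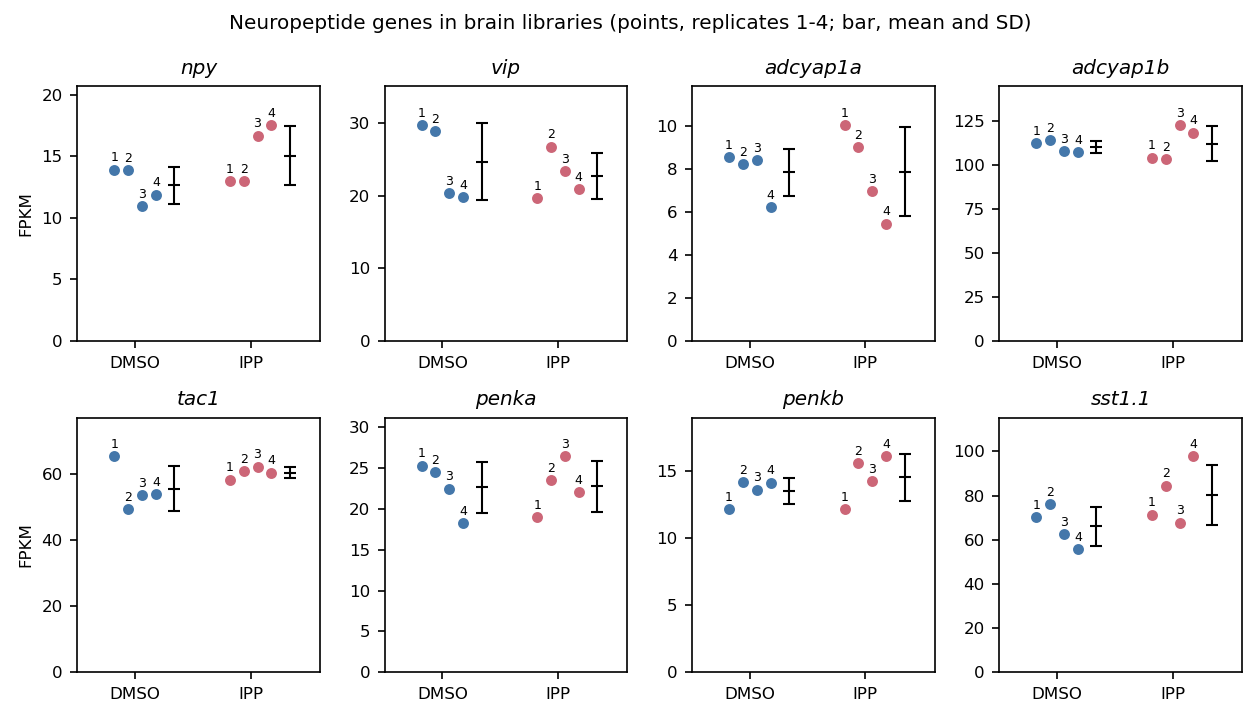
FPKM of 8 neuropeptide genes in each brain library, with library numbers above the points and the mean and SD of 4 libraries beside them; the vertical scales differ between genes and start at 0. DMSO and IPP points overlap for every gene, and the highest sst1.1 point is 97.7 FPKM in IPP 4.

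The change with IPP in eye minus that in brain was negative for 7 of the 8 members on the log2 scale. Of all genes tested in both tissues 55.0% had a negative difference, with a median of -0.030. It was -1.31 with an SE of 0.24 for npy, whose change was negative in eye and positive in brain. For tac1 it was -0.76 with an SE of 0.20, again with opposite signs in the tissues. For adcyap1b it was -0.50 with an SE of 0.25, and for vip, lower in both tissues, it was -0.27 with an SE of 0.19. Only penkb had a positive difference, 0.28 with an SE of 0.27. Over the 15856 genes tested in both tissues, 0% were called for a difference between the tissues by limma, and 640 had an unadjusted p under 0.05. The members' differences hold the eye contrast and are given without a test. Their SEs treat eye and brain libraries as independent.

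**Figure D4:**
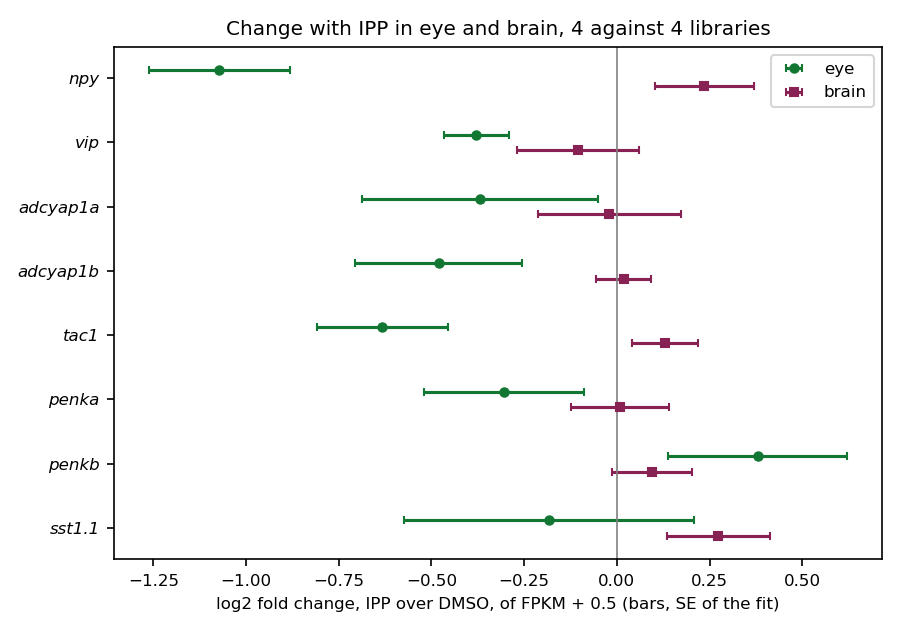
Log2 fold change of FPKM + 0.5, IPP over DMSO, for 8 neuropeptide genes in eye (circles) and brain (squares), each from 4 against 4 libraries, with bars for the SE of the fit. The eye value of npy, -1.07, lies farthest from 0, and the brain values lie between -0.11 and 0.27.

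Receptors of these peptides were scarce in eye, where every receptor gene but sstr2b had a DMSO mean under 2 FPKM. The receptor lists held 33 genes, of which 31 were found and 13 passed the filter in eye and 18 in brain. In eye, 5 of the 13 were lower and 8 higher in IPP, with a median log2 fold change of 0.094 and 0 called by limma. In brain, 12 of the 18 were lower and 6 higher, with a median of -0.051 and 0 called.

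The most abundant NPY receptor gene in both tissues was npy2rl, at 1.34 ± 0.507 FPKM in eye DMSO and 3.47 ± 0.620 FPKM in brain DMSO (SD, n = 4), while npy1r and npy4r were listed at 0 in all 16 libraries. In brain npy8br was about as abundant, at 3.32 ± 0.409 FPKM in DMSO and 2.99 ± 1.6 FPKM in IPP (SD, n = 4), where 3 IPP libraries lay below and 1 above every DMSO library and the adjusted p was 1 by limma. Both npy8br and sst2 were named after their values were seen. In IPP eyes, where npy was lowest, npy2rl stood at 1.59 ± 0.588 FPKM and its groups overlapped. Of the receptors for VIP and PACAP, vipr1b led in eye at 1.77 ± 0.704 FPKM against 1.78 ± 0.767 FPKM in IPP. In brain, where adcyap1b was the most abundant of the members, the leading receptor was adcyap1r1a, the PACAP receptor. It stood at 39.0 ± 0.837 FPKM against 37.7 ± 1.17 FPKM in IPP, the most abundant receptor of all 31. Its log2 fold change in brain was -0.049 with an adjusted p of 1 by limma. The second PACAP receptor gene, adcyap1r1b, had the smallest unadjusted p among the brain receptors, with 5.66 ± 0.672 FPKM in DMSO and 4.45 ± 0.70 FPKM in IPP (SD, n = 4) and an adjusted p of 1 by limma.

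Somatostatin receptors differed in kind between the tissues. In eye the leading gene was sstr2b at 6.47 ± 1.01 FPKM (SD, n = 4), above the level of sst1.1 itself, and in brain the same gene stood at 0.0198 ± 0.0397 FPKM. In brain sstr1a led at 11.9 ± 0.781 FPKM, and in IPP brains it read 14.5 ± 2.11 FPKM, with overlapping groups and an adjusted p of 1 by limma. The list of opioid receptors included oprl1, at 9.31 ± 0.833 FPKM in brain DMSO and 8.16 ± 1.09 FPKM in IPP. All 5 opioid receptor genes were lower in IPP brains, with a median log2 fold change of -0.19, and 46.9% of all tested brain genes were lower. The 3 tested in eye were higher, with a median of 0.37, and 50.5% of all genes tested in eye were lower. Of these receptor genes 0 were called in either tissue. Below the eye filter, the mean of oprm1 went from 0.289 FPKM in DMSO to 0.117 in IPP and that of oprl1 from 0.486 to 0.511. The eye value of oprk1, the kappa receptor, was 1.15 ± 0.515 FPKM in DMSO and 2.1 ± 0.351 FPKM in IPP (SD, n = 4), with overlapping groups and an adjusted p of 0.363 by limma. Tachykinin receptors were scarce. In eye DMSO tacr3a stood at 0.481 ± 0.399 FPKM and tacr3l at 0.449 ± 0.277 FPKM (SD, n = 4), with overlapping ranges. Their IPP means in eye were 0.244 and 0.454 FPKM. The leading one in brain DMSO was tacr3l, at 1.45 FPKM.

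**Figure D5:**
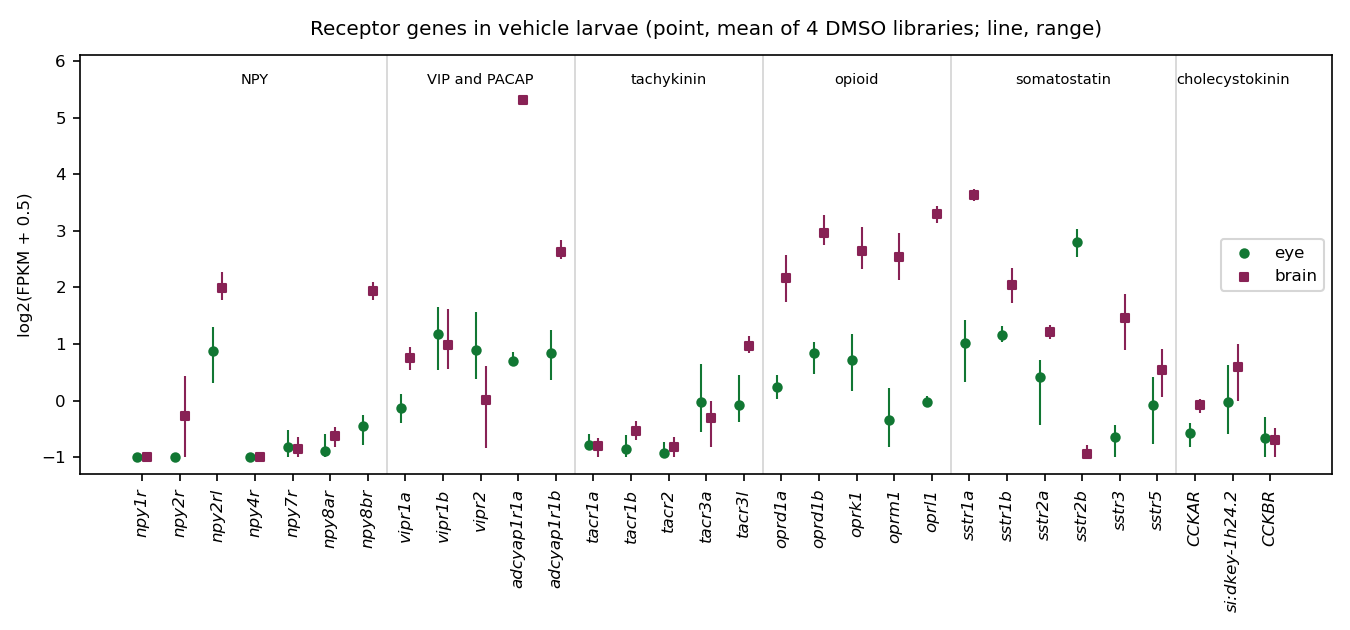
Log2(FPKM + 0.5) of receptor genes in DMSO larvae, grouped by peptide, in eye (circles) and brain (squares), with the mean of 4 libraries and a line for their range. Most receptors are higher in brain, with adcyap1r1a at the top, and sstr2b is the clearest case of the reverse.

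Genes that process and store peptides were lower on average in IPP eyes. The list holds prohormone convertases, carboxypeptidase E, the amidating enzyme and granins; it summed to 320 to 376 FPKM in eye DMSO and 261 to 309 FPKM in eye IPP, with 13 of 17 genes lower, a median log2 fold change of -0.21 and 0 called. Its gene with the smallest p was cadpsb, a priming factor for dense-core granules, at 39.0 ± 2.95 against 28.4 ± 3.14 FPKM (SD, n = 4). The cadpsb groups were apart, with a log2 fold change of -0.45 and an adjusted p of 0.303 by limma. Groups were also apart, with IPP lower, for chgb, cadps2 and ptprna. Their log2 fold changes were -0.72, -0.72 and -0.55. The granin scg3 stood at 51.1 ± 10.2 against 39.1 ± 3.90 FPKM, and cpe, carboxypeptidase E, at 41.0 ± 6.54 against 37.0 ± 4.98 FPKM, both with overlapping groups. The other 4 genes of the list were higher in IPP eyes. Among them the convertase pcsk1 stood at 9.13 ± 6.53 against 16.2 ± 2.88 FPKM, with overlap. Its log2 fold change was 1.07, with an adjusted p of 0.432 by limma. Also higher was cadpsa, at 5.25 ± 1.70 against 7.16 ± 0.944 FPKM, with overlap. In brain 9 of the 17 were lower and 8 higher, with a median of -0.00039. The granin scg2b led there at 293.9 ± 23.8 against 352 ± 56.7 FPKM, with overlap and an adjusted p of 1 by limma.

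Genes of GABA interneurons, the class in which many peptide cells fall, were lower in sum in IPP eyes as well. They summed to 1096 to 1303 FPKM in eye DMSO and 901 to 1006 FPKM in eye IPP, with 8 of 14 tested genes lower, a median of -0.13 and 0 called. The calcium-binding protein gene calb2b stood at 614.6 ± 39.5 against 472 ± 50.7 FPKM (SD, n = 4), with groups apart and an adjusted p of 0.303 by limma. The vesicular GABA transporter slc32a1 stood at 114 ± 17.8 against 86.3 ± 12.4 FPKM and the GABA-synthesizing enzyme gad1b at 139 ± 15.1 against 115 ± 10.8 FPKM, both with overlap. The sum leans on calb2b, the most abundant gene of the list in eye. By sign, 8 of 14 lay near the share of all genes tested in eye, of which 50.5% were lower. Higher in IPP eyes were 6 of the 14, among them slc6a1a, at 45.7 ± 10.5 against 53.9 ± 9.79 FPKM with overlap. In brain 12 of 17 were lower, with a median of -0.083 and overlapping sums.

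By similarity of level over the 16 libraries, each centred on its tissue mean, the genes closest to a member were sought among 13661 genes with at least 1 FPKM in both tissues. For vip the nearest was ankrd46b, at a root mean square distance of 0.084 on the log2 scale, followed by tmem9b and hsbp1b. For npy the nearest gene with a given symbol was c2cd4a at 0.24, and for adcyap1b it was dlk2 at 0.14, followed by kcnf1b. For tac1 the nearest were hbp1, pop5 and gpr63, each at 0.19. For sst1.1 the nearest was tbr1b at 0.25, followed by cpne2 and otpa. The deviation of sst1.1 itself from its tissue means had a root mean square of 0.44. The transcription factor gene tbr1b, a marker of excitatory forebrain neurons, read 3.22, 3.48, 2.95 and 2.34 FPKM in eye DMSO libraries 1 to 4 and 2.15, 4.94, 1.96 and 1.62 FPKM in eye IPP libraries. Its highest eye library was IPP 2, as for sst1.1 and adcyap1b, and the hypothalamic factor otpa was also highest there at 5.49 FPKM. The gene cpne2 read 4.22 FPKM in eye IPP 2 and 1.57 to 2.85 FPKM in the other eye libraries. Since tbr1b, cpne2 and otpa were picked for likeness to sst1.1, their high values in IPP 2 follow from that choice. The telencephalon list, which holds tbr1b, summed to 554, 491, 635 and 586 FPKM in eye IPP 1 to 4. In eye DMSO it summed to 532 to 686 FPKM. In it foxg1b alone, a gene also used in retina, stood at 582 ± 71.5 FPKM in eye DMSO (SD, n = 4). The hypothalamus list, which holds otpa, summed to 68.4, 66.9, 78.6 and 77.2 FPKM in eye IPP 1 to 4. In eye DMSO that list summed to 55.2 to 74.3 FPKM. Whether brain tissue in eye IPP 2 had a part in these values was not tested.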

How the data were processed

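RNA was sequenced from dissected eyes and brains, 4 libraries per group. The deposited values are FPKM. The submitters' processing notes name HISAT2 2.0.5 and featureCounts 1.5.0-p3. The sources used here do not give the genome build or how FPKM was computed. Whole reads were rebuilt as FPKM times length to within 0.01 read, and summed to 9.62 M to 16.3 M per library. After a filter at a mean of 0.5 FPKM, limma 3.58.1 (R 4.3.3; lmFit, eBayes with trend) was run on log2(FPKM + 0.5) to set IPP against DMSO in each tissue, and between tissues as an interaction contrast. Fold changes are on this scale, which understates those of low genes. The 27 gene lists, that of the members included (328 of 341 entries found), were chosen with earlier results of these data known. Named beside the members were the most abundant genes of each list, those with the smallest p, and those most alike over the libraries. Some others, among them pcsk1, cadpsa, chgb, slc6a1a and oprm1, were named outside these rules with their values in view. Code was tested on simulated data. Alternatives were pseudocounts, filters, scalings, a replicate block, weights, voom and libraries left out. Pairs of libraries left out together and levels per neuronal RNA were chosen after seeing the data.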

Additional observations from a re-analysis of the deposited data

Results flagged for a closer look

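In 32 groups of 4 libraries, 8 genes in 4 groups, 2 held a library far from the other 3 by Dixon's test, and chance gives about 1 in 20. The value of sst1.1 in eye IPP 2 was 3.83 FPKM, while the other 3 libraries of the group held 0.728 to 0.986 FPKM. The value of adcyap1a in brain DMSO 4 was 6.22 FPKM, against 8.21 to 8.52 FPKM in the other 3. The cause of either value was not tested.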

How the results depend on the processing

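No member was called in brain under any alternative. In eye the log2 fold changes of npy, vip and tac1 stayed negative throughout, between -1.28 and -0.88 for npy. Per mature neuron FPKM, vip moved to -0.071 and penkb to 0.76. The eye sign of sst1.1 turned in 3 settings, to 0.0086 without IPP 4, 0.29 without IPP 3 and IPP 4 and 0.30 per mature neuron FPKM. The count of eye genes called, 0 in all, was 0 to 3 with a single library left out (3 without DMSO 4, 1 without IPP 1) and 40 without DMSO 4 and IPP 4 together. With a filter at 2 FPKM, which adcyap1a, penka and sst1.1 did not pass, 4 members were lower in eye and 4 in the difference between tissues. In brain 1 gene was called without DMSO 1 and IPP 4; the members lower there, 2 of 8, numbered 1 in that setting, 4 after quantile normalization and 1 to 3 with a single library left out. The brain signs of small values turned. For vip the value was 0.025 and for penkb -0.0046 without DMSO 1 and IPP 4. For adcyap1a it was 0.10 with quality weights, -0.14 to 0.13 with a single library left out, 0.17 without DMSO 1 and IPP 4 and 0.27 without IPP 3 and IPP 4. For adcyap1b it was -0.016 after quantile normalization, -0.031 with weights, -0.027 to 0.057 with a single library left out and -0.091 without IPP 3 and IPP 4. For penka these values were -0.011, -0.025, -0.090 to 0.089 and -0.085. With a single library left out, brain values ran from 0.17 to 0.35 for sst1.1, 0.16 to 0.30 for npy, 0.075 to 0.21 for tac1, 0.044 to 0.17 for penkb and -0.20 to -0.0095 for vip. The cause was not tested. Joint median-of-ratios scaling moved the log2 ratio of eye over brain to 1.2 for vip, -3.73 for adcyap1b and -3.49 for penka. With the replicate number as a block, 0 genes were called in each comparison; the numbers were not taken to pair the samples, since correlations of same-numbered libraries ran from -0.094 to 0.33 within a tissue. Between eye and brain they were 0.14, 0.14, -0.14 and 0.44 for DMSO 1 to 4 and 0.32, 0.30, 0.21 and 0.38 for IPP 1 to 4, so eye and brain of the same number may share a source. Depth limits adcyap1a in eye, at 3 to 27 reads, and also sst1.1 at 6 to 35, penka at 14 to 29 and penkb at 17 to 49.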

Other observations

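Among 30 other neuropeptide genes found, cort and ccka led in eye. The gene cort, which encodes a somatostatin-like peptide, stood at 18.3 ± 3.42 FPKM in eye DMSO and 9.81 ± 3.26 FPKM in eye IPP (SD, n = 4), with groups apart, a log2 fold change of -0.92 and an adjusted p of 0.303 by limma. In brain it stood at 77.7 ± 5.59 and 76.3 ± 5.27 FPKM. The cholecystokinin gene ccka was level in eye, at 22 ± 2.24 and 23.1 ± 2.28 FPKM, and in brain read 29.0 ± 3.68 and 26.8 ± 4.57 FPKM. The stress peptide gene crhb read 11.3 ± 2.35 against 8.88 ± 1.54 FPKM in eye and trh, the thyrotropin-releasing hormone gene, 6.70 ± 1.24 against 6.19 ± 0.440 FPKM, both with overlap. In eye 11 of 15 tested genes of this list were lower in IPP, with a median log2 fold change of -0.21 and 0 called. In brain 12 of 27 were lower and 15 higher, with a median of 0.12 and 0 called. Among brain genes whose mean reached 1 FPKM the smallest p was that of pyya, at 50.4 ± 5.18 against 60.2 ± 7.81 FPKM, with overlap and an adjusted p of 1 by limma. Below that level crha had a smaller p, at 0.565 ± 0.102 against 1.11 ± 0.279 FPKM, with groups apart and 4 to 13 reads per library. Its adjusted p was 1 by limma. The gene pyyb also had groups apart in brain, at 2.26 ± 0.637 FPKM in DMSO and 9.41 ± 12 FPKM in IPP. Its highest IPP library read 27.3 FPKM. Both crha and pyyb were named after their values were seen. The part in pyya and pyyb of the gut, liver and pancreas RNA of brain IPP 4 was not tested.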
